A study of Mus musculus with 4 samples.

Results

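ILC1-like cells, innate lymphocytes that carry natural killer (NK) receptors together with tissue-retention genes, were described among CD45+ cells of the mouse mammary gland. A cell had to hold 500 or more UMIs, where a UMI is 1 captured transcript, from 300 or more genes, with no more than 10% of the UMIs mitochondrial. A cell was counted as ILC1-like when it had no UMI of the CD3 genes Cd3e, Cd3d and Cd3g, at least 1 UMI over the NK receptor genes Ncr1 and Klrb1c, and at least 2 UMIs over the residency genes Itga1, Itgae and Gzmc. Cells with a UMI of Cd8b1, Cd4, Cd79a or Ms4a1 were left out. These conditions were met by 1243 of 42781 cells, of which 636 were among 21604 cells of the earlier pool (library DR_MG_2021; 2.94%) and 607 among 21177 cells of the later pool (library DR_MG_2022; 2.87%). The members were thus chosen by the UMI counts of these 12 genes, which are described without a test. The comparison population, called NK below, passed the same gate but had no UMI of Itga1, Itgae or Gzmc, and held 3233 cells.

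Each library pooled cells of several samples that had been marked with hash tags, antibodies that carry a short DNA barcode, and a deposited sheet pairs each tag with a name. The sheet of the earlier pool names Germ-free (HT2), Nulliparous (HT4), Gestation (HT5) and Lactation (HT6). The samples of the later pool are Germ-free (HT2), Gestation (HT5), Lactation (HT6), Involution (HT8, after milk production stops), Regression (HT9), Balb/c (HT10, a mouse strain) and GF (HT12). HT4 is named there as well but had a total of 1 count there and was not used. Involution, but not germ-free, appears in the titles of the earlier pool, and germ-free appears once in those of the later, so the name of HT2 is in dispute in both and its samples are called by their tag. The number of animals per tag, their ages, the strain of the samples other than Balb/c, and the reproductive stage of the Balb/c and GF samples are not stated in the labels or sheets. Every sample was collagenase-digested tissue. Nothing states that samples came from separate litters or cohorts. The p-values therefore measure the spread between the hash-defined samples of each comparison, at most 10 of these 11. That spread may be partly technical.

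Group 1 innate lymphocytes comprise NK cells, which circulate and kill through perforin and granzymes, and ILC1, which stay in tissues. Residency is aided by integrins that bind tissue ligands: the product of Itga1 pairs with integrin beta 1 and binds collagen, and that of Itgae pairs with integrin beta 7 and binds E-cadherin on epithelium. Circulating NK cells depend on the transcription factor Eomes, whereas ILC1 are described as depending on T-bet (Tbx21). Transforming growth factor beta (TGF-beta) promotes residency genes in lymphocytes of glandular tissues, and CD3-bearing lymphocytes inside epithelia can show the same integrins.

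Which sample a cell belongs to rests on the 15-base barcodes of the tags, which are shown because every comparison between samples depends on reading them. They are given as the deposited sheets list them, with every base part of the barcode.
HT2: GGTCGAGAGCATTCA
HT4: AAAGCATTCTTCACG
HT5: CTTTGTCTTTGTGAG
HT6: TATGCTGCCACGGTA
HT8: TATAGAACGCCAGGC
HT9: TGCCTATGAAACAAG
HT10: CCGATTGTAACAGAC
HT12: CTGCAAATATAACGG
In the earlier pool the median ILC1-like cell had 39.5 counts of its tag in HT2, 146 in Nulliparous, 76 in Gestation and 33 in Lactation. In the later pool the medians were 91.5 in HT2, 11 in Gestation, 6 in Lactation, 26 in Involution and 99 in Regression, with 50.5 in Balb/c and 16 in GF, so the calls of Lactation in the later pool rest on the fewest tag counts.

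Of the 1243 ILC1-like cells, 152 had more than 1 tag, 196 had none and 895 had a single tag. Removal of 29 doublet calls left 866 cells, 442 of the earlier pool and 424 of the later pool, among 29900 analysed cells. The median ILC1-like cell had 2136 UMIs in the earlier pool and 3629 in the later pool, against 1261 and 2815 in NK and 1599 and 3049 over all cells. The deeper reading of ILC1-like cells goes with a gate that asks for 2 or more UMIs of low genes. Values from cells thinned to 1000 UMIs are therefore given beside the ILC1-like shares and several other values. The gate was applied to the thinned counts for the shares only, and the other thinned values keep the populations gated at full depth. The libraries held 56300251 and 90642638 UMIs and shared 139 cell barcodes.

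Many cells lay close to the residency limit of the gate. Of the cells that passed every other condition, 333 in the earlier pool and 179 in the later pool had 1 residency UMI and fell just outside, and 177 and 121 had 2 and fell just inside. A further 153 and 79 cells had 3, and 306 and 407 had 4 or more. At the CD3 limit, 124 and 114 cells with 1 CD3 UMI were just outside, beside 636 and 607 members with none. In cell types that should lack these genes, where free RNA can give UMIs, both the NK and the residency condition were met by 1 of 1361 B cells of the earlier pool (0.0735%, median 930 UMIs) and 3 of 2880 of the later pool (0.104%, median 2037.5 UMIs). Among macrophages both were met by 6 of 1115 (0.538%, median 2226 UMIs) and 3 of 1208 (0.248%, median 4524.5 UMIs).

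The genes that defined the gate were unevenly spread among the members. Itga1 was detected in 85.1% of the analysed members of the earlier pool and 95.5% of the later pool, Itgae in 69.0% and 70.8%, and Gzmc, a granzyme, in 31.7% and 29.7%. Both integrin genes were found together in 57.0% and 67.9% of members, all 3 genes in 15.8% and 21.5%, and Gzmc alone in 2.94% and 1.65%. Ncr1, which encodes the activating receptor NKp46, was detected in 58.8% and 88.9%, and Klrb1c, which encodes NK1.1, in 83.3% and 62.0%. The share of members with Itgae ran from 16.7% in later HT2 to 84.1% in Balb/c.

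The members were checked against markers that the gate did not use. The adaptor genes Tyrobp and Fcer1g, which serve NK receptors, were detected in 93.9% and 96.6% of members in the earlier pool and in 96.5% and 96.0% in the later pool. Both genes also had UMIs in CD3-bearing cells of the same residency gate, Tyrobp at a lower mean level. Detection of either is therefore not particular to members. Trac, the constant region of the T cell receptor alpha chain, was found in 1.58% and 3.54% of members, against 1.59% and 4.23% of NK and 32.0% and 47.0% of CD3-bearing cells of the same residency gate. Cd8a was found in 0.452% and 0.472% of members. Cd5 was found in none of the 442 members of the earlier pool, which allows a share of up to 0.679% of cells with a UMI, and in 0.708% of those of the later pool. In the CD3-bearing cells it was itself found in only 2.36% and 7.43%. Beta and gamma chain transcripts were common, with Trbc1 in 48.4% and 65.1% and Trgc4 in 36.2% and 43.6% of members, against 31.7% and 56.2% (Trbc1) and 5.65% and 6.01% (Trgc4) of NK. Trgc4 was found in 29.1% and 32.2% of the CD3-bearing cells. At least 1 UMI of any T cell receptor constant gene was found in 79.9% and 88.9% of members. Whether some members are T cells whose CD3 transcripts were missed was not tested.

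Markers of other lymphoid and non-lymphoid cells were counted as well. Il13, Il5, Il22 and Il17a, cytokines of ILC2 and ILC3, had no UMI in any of the 866 members, which allows a share of up to 0.346% of cells with a UMI of each. At this depth that does not limit the share of cells that transcribe these low genes. Il7r, the receptor of interleukin 7 and a gene of many ILC, was detected in only 4.30% and 11.3% of members, against 3.68% and 9.24% of NK. Krt8 was found in 0% and 0.472% of members and Col1a1 in 0% and 2.36%. The plasma cell gene Mzb1 had no UMI in members, whereas Jchain was found in 34.8% and 12.5% of members and in 29.5% and 12.7% of NK. Epcam, an adhesion gene of epithelium, was detected in 11.1% and 9.20% of members against 1.33% and 1.45% of NK, and in 11.2% and 10.8% of the CD3-bearing cells.

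The share of ILC1-like cells varied widely between samples. In the earlier pool they were 16 of 2826 cells in HT2 (0.566%, 95% exact binomial interval 0.324 to 0.918), 91 of 5633 in Nulliparous (1.62%, 1.30 to 1.98), 165 of 4409 in Gestation (3.74%, 3.20 to 4.35) and 170 of 2422 in Lactation (7.02%, 6.03 to 8.11). The intervals of these 4 samples did not overlap, and they cover counting error only. In the later pool they were 12 of 1795 cells in HT2 (0.669%, 0.346 to 1.16), 75 of 3328 in Gestation (2.25%, 1.78 to 2.82) and 20 of 783 in Lactation (2.55%, 1.57 to 3.92). Involution had 21 of 2218 (0.947%, 0.587 to 1.44) and Regression 7 of 2391 (0.293%, 0.118 to 0.602). Balb/c had 208 of 1972 (10.5%, 9.23 to 12) and GF 81 of 2123 (3.82%, 3.04 to 4.72). The Balb/c interval lay above those of all other samples of the later pool, and that of Lactation overlapped both Gestation and GF, which did not overlap each other.

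The order of the samples depended on depth. Cells with fewer than 1000 UMIs were left out, the others were thinned to 1000 UMIs, and the gate was applied to the thinned counts. Thinning can remove CD3 UMIs as well as residency UMIs. The filter kept 2941 of 4409 cells of earlier Gestation and 2185 of 2422 of earlier Lactation. In the earlier pool the thinned share was 1.13% in Nulliparous, 3.33% in Gestation (2.71 to 4.05) and 2.84% in Lactation (2.18 to 3.62). The intervals of Gestation and Lactation overlapped. At full depth the median cell of Lactation had 2041 UMIs and that of Gestation 1194. The thinned share in the later pool was 0.762% in Gestation, 1.42% in Lactation, 0.416% in Involution and 0.0866% in Regression. It was 5.4% in Balb/c and 1.83% in GF, with Balb/c still the highest. The HT2 samples had 0.549% and 0.116%. Regression (0.0105 to 0.313) and later HT2 (0.0141 to 0.419) had 2 thinned members each, with overlapping intervals. Lactation exceeded Gestation by 0.907 on the log2 scale in the earlier pool and by 0.181 in the later pool at full depth, a mean of 0.544 (two-sided exact permutation test over the 4 samples without regard to pool, p = 0.667, where 0.33 is the smallest p that 2 samples against 2 allow). After thinning the log2 ratios were -0.232 and 0.903. Computed across pools with 1 sample left out, so that the difference between pools enters, the mean ratio was -0.19 without earlier Lactation, 0.178 without later Gestation, 0.910 without earlier Gestation and 1.27 without later Lactation. The ratio within the pool that stays whole was 0.181 without either earlier sample and 0.907 without either later one.

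**Figure D1:**
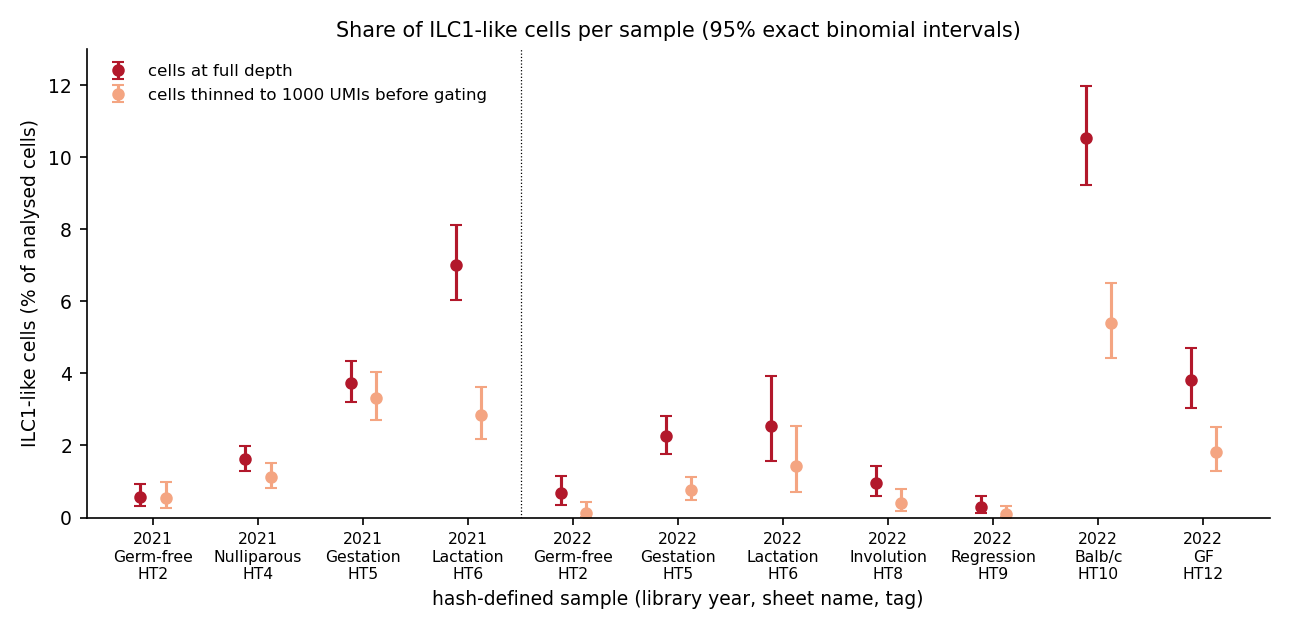
Share of ILC1-like cells among the analysed cells of each hash-defined sample, in percent, with 95% exact binomial intervals. Shares are given at full depth and after thinning to 1000 UMIs, without the cells below that depth. Balb/c stands highest (10.5%, thinned 5.4%) and Regression lowest (0.293%, thinned 0.0866%). The intervals of Regression overlap those of later HT2 at both depths. Earlier Gestation and Lactation exchange their order after thinning, with overlapping intervals.

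NK cells did not follow the same course. They were 17.5% of cells in HT2, 5.11% in Nulliparous, 12.1% in Gestation and 10.7% in Lactation of the earlier pool. In the later pool they were 16.8% in HT2 and between 3.73% (Gestation) and 6.39% (Balb/c) in the other 6 samples. ILC1-like cells therefore made up 3.14% and 3.83% of the sum of both populations in the HT2 samples of the 2 pools, 5.93% in Regression and 15.9% in Involution. They made up 23.6% to 39.5% in the Nulliparous, Gestation and Lactation samples, 46.3% in GF and 62.3% in Balb/c. These shares depended on depth. After thinning they were 15.2% (later Gestation) to 28.2% (later Lactation) in the Nulliparous, Gestation and Lactation samples, 26.4% in GF and 39.2% in Balb/c. The thinned share was 3.63% in earlier HT2, 0.719% in later HT2, 2.0% in Regression and 8.41% in Involution. The tissue of origin of the HT2 samples is labelled as for all others, and HT2 is the tag whose name is in dispute.

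Gene expression was compared between ILC1-like and NK cells of the same samples, to find which genes outside the gate separated them. Cxcr6, a retention receptor, Cdh1, an adhesion gene of epithelium, and Cd7 were higher in ILC1-like cells in 10 of 10 samples, and Prf1 and Eomes, genes of circulating NK cells, were lower in 10 of 10. UMIs were summed per population in the 10 samples with at least 10 cells of each, which leaves out Regression with its 7 members, and edgeR's quasi-likelihood test was run with the sample as a block. Of 7470 genes tested, 997 had an adjusted p under 0.05 (13.3%). In ILC1-like cells 448 were higher (6.0%) and 549 lower (7.35%), and 1787 had an unadjusted p under 0.05. Levels are UMIs per 10000 UMIs of a population, and counts of list members are to be read against these percentages. Genes that share reads with close copies, above all the Klra, Klrb1 and Trgc families, are uncertain in these 3' counts.

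Cd7, which encodes a surface protein of T and NK cells, had the smallest adjusted p of all genes. Its level in the 10 ILC1-like samples ran from 7.87 through a median of 17.3 to 24.6, and in NK from 1.31 through 3.12 to 4.86, with no overlap (log2 fold change 2.43 ± 0.12 SE, adjusted p = 6.3e-14, edgeR). Cxcr6, the receptor of CXCL16 and a retention receptor of lymphocytes, ran from 0.907 (earlier HT2) through 2.20 to 3.77 (Balb/c) in members and from 0.0746 through 0.264 to 0.99 (Balb/c) in NK. It was higher in 10 of 10 samples (2.75 ± 0.18, adjusted p = 1.9e-11, edgeR), and the groups overlapped only between members of the earlier HT2 and Balb/c NK.

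The 10 largest rises by the rule for named genes included Cdh1, which encodes E-cadherin, the ligand of the Itgae integrin. Cdh1 ran from 0.131 (later HT2) through 1.56 to 2.56 (Balb/c) in members and from 0 through 0.136 to 0.255 in NK (3.45 ± 0.21, adjusted p = 5.1e-12, edgeR). The groups overlapped only through the 12 members of the later HT2, which held 1 UMI of it. Tmem273, a membrane protein gene, lay at 0.131 to 1.01 in members and 0 to 0.0928 in NK without overlap (3.68 ± 0.28, adjusted p = 2.5e-10). Nt5e, which encodes the adenosine-producing enzyme CD73, had a mean of 0.695 ± 0.310 (SD, n = 10) in members and 0.0745 ± 0.0691 in NK (2.86 ± 0.31). Sema6d, a semaphorin gene, had means of 1.22 ± 0.568 and 0.141 ± 0.114 (2.89 ± 0.22). The sphingosine phosphate receptor gene S1pr3 (3.71 ± 0.61), the corepressor gene Tle2 (3.39 ± 0.53) and the tetraspanin gene Tspan9 (2.89 ± 0.64) were low in both populations, with means of 0.228, 0.234 and 0.180 in members and 0.0106, 0.0195 and 0.0172 in NK. The transcripts 4930520O04Rik (3.97 ± 0.86) and Gm11714 (2.81 ± 0.51) rested on 45 and 71 member UMIs. Sparc, a matrix protein gene, was also among them (2.77 ± 0.35), but 50% of its member UMIs of the earlier pool and 44.6% of those of the later pool came from 1 cell.

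Of the ILC1 and tissue residency list, 21 of 23 genes were tested, 11 were higher and 2 lower, with a median log2 fold change of 0.38 against -0.00 over all genes. Rgs1, a brake on chemokine receptor signalling found in tissue-resident lymphocytes, ran from 4.59 (later HT2) through 19.2 to 26.1 in members and from 2.30 through 5.27 to 6.64 in NK (1.79 ± 0.11, adjusted p = 7.0e-12, edgeR). Tnfsf10, which encodes the death ligand TRAIL, ran from 0.787 through 2.13 to 3.81 against 0.171 through 0.549 to 0.99 (2.08 ± 0.14, adjusted p = 1.5e-11). Both were higher in 10 of 10 samples. Cd200r1, an inhibitory receptor gene used to mark ILC1, had means of 1.00 and 0.222 (2.02 ± 0.20, higher in 9 of 10). The chemokine gene Xcl1 had means of 19.3 ± 10.9 and 7.75 ± 3.45 (1.21 ± 0.16, higher in 9 of 10), and Inpp4b, a lipid phosphatase gene, 3.23 and 0.666 (2.25 ± 0.16). The Itgae partner gene Itgb7 rose by less (0.38 ± 0.11, adjusted p = 0.023). The 2 lower members were Ctla2a (-0.85 ± 0.14) and the oxysterol receptor gene Gpr183 (-1.11 ± 0.29). Cd69 (0.10 ± 0.15, adjusted p = 0.76) and Il7r (-0.19 ± 0.28, adjusted p = 0.76) did not pass.

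**Figure D2:**
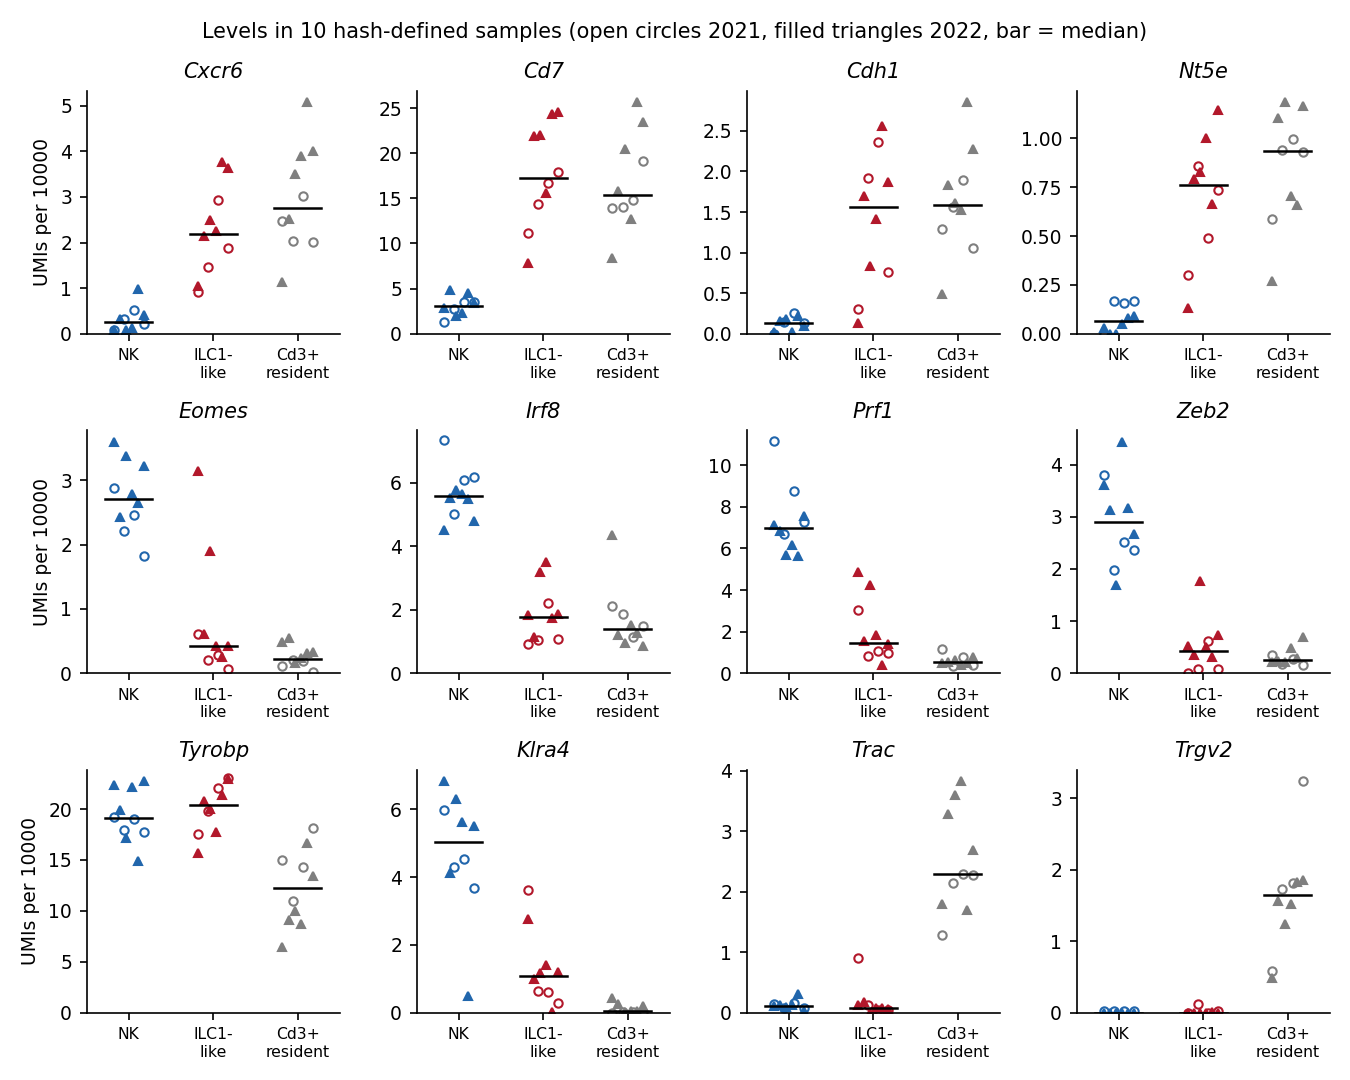
Level of 12 genes in UMIs per 10000 UMIs, 1 point per hash-defined sample (open circles for the earlier pool, filled triangles for the later pool) and a bar at the median, in ILC1-like cells, NK cells and CD3-bearing cells of the same residency gate. Cd7 lies at 7.87 to 24.6 in ILC1-like samples and 1.31 to 4.86 in NK samples, and Trac lies lower in every ILC1-like sample than in any CD3-bearing one.

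Genes of circulating and mature NK cells were lower as a group: 17 of 20 tested fell, none rose, and the list's median was -1.92. Prf1, which encodes perforin, ran from 0.383 (Balb/c) through 1.47 to 4.85 (later HT2) against 5.64 through 6.99 to 11.2 (-2.28 ± 0.22, adjusted p = 2.0e-08, edgeR). No ILC1-like sample reached the lowest NK sample. Zeb2, a factor of terminal NK maturation (-2.80 ± 0.25), S1pr5, an egress receptor gene (-2.72 ± 0.37), Klf2, a factor that drives egress genes (-2.19 ± 0.23), and the integrin genes Itgam (-2.11 ± 0.19) and Itga2 (-1.84 ± 0.16) fell as well. Klf2 was higher in members in 1 sample, Involution, where it stood at 3.59. Gzma did not pass and had 89.7 ± 66.6 in members and 56.4 ± 18.8 in NK (0.44 ± 0.15, adjusted p = 0.055, higher in 6 of 10).

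The 10 largest falls by the rule for named genes included genes of proteases and macrophages. Cma1, a chymase gene known from mast cells and also transcribed by NK cells, ran from 0 through 0.0466 to 0.262 in members and from 0.567 through 0.762 to 4.10 (earlier HT2) in NK (-3.86 ± 0.30, adjusted p = 4.1e-10, edgeR). Adamts14, a protease gene, ran from 0 through 0.132 to 0.474 against 0.80 through 1.5 to 2.48 (-3.42 ± 0.23, adjusted p = 3.2e-11). Neither gene's groups overlapped. Of the Cma1 UMIs of NK, 124 of 391 in the earlier pool and 53 of 276 in the later came from 1 cell each. The mast cell genes Cpa3 and Mcpt4 stood at 1.76 and 1.34 in NK of the earlier HT2, where its members had no UMI of either, and the part of mast cell transcripts in the fall of Cma1 was not tested. Serpinb9b, a serpin gene, had means of 0.0211 and 0.428 (-4.34 ± 0.40), also without overlap. As3mt (-3.27 ± 0.37) and Phactr3 (-3.13 ± 0.49) had means of 0.0667 and 0.0335 in members and 0.431 and 0.253 in NK. The remaining 4, Mmp12 (-4.07 ± 0.53), C3ar1 (-3.83 ± 0.86), Cd14 (-3.08 ± 0.71) and Dnase1l3 (-3.0 ± 0.69), had 4, 1, 4 and 4 UMIs in members and are known from macrophages and dendritic cells.

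Macrophage transcripts moved with this comparison. Of 13 tested genes of the macrophage, monocyte and dendritic cell list, 11 were lower in members and 1, Itgax (0.84 ± 0.13), was higher. Itgax encodes CD11c, which NK cells also carry. The summed level of the whole list ran from 25.0 to 43.5 in NK of the earlier pool and 31.3 to 145 in NK of the later pool, against 8.6 to 30.5 and 15.3 to 51.3 in members. C1qa was found in 2.71% and 8.96% of members and 3.75% and 11.1% of NK. When cells with a macrophage UMI were left out, a check added after seeing the data, 772 of 5012 genes passed, and 656 of those were among the 997. Immediate early genes, which tissue digestion can induce, were lower in 8 of 14 tested, among them Fos (-1.22 ± 0.21) and Atf3 (-2.0 ± 0.41), with list sums of 11.8 to 32.9 and 23.8 to 49.1 in members against 17.8 to 29.7 and 36.2 to 53.9 in NK. The part of these transcripts in the other genes' differences was not tested.

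**Figure D3:**
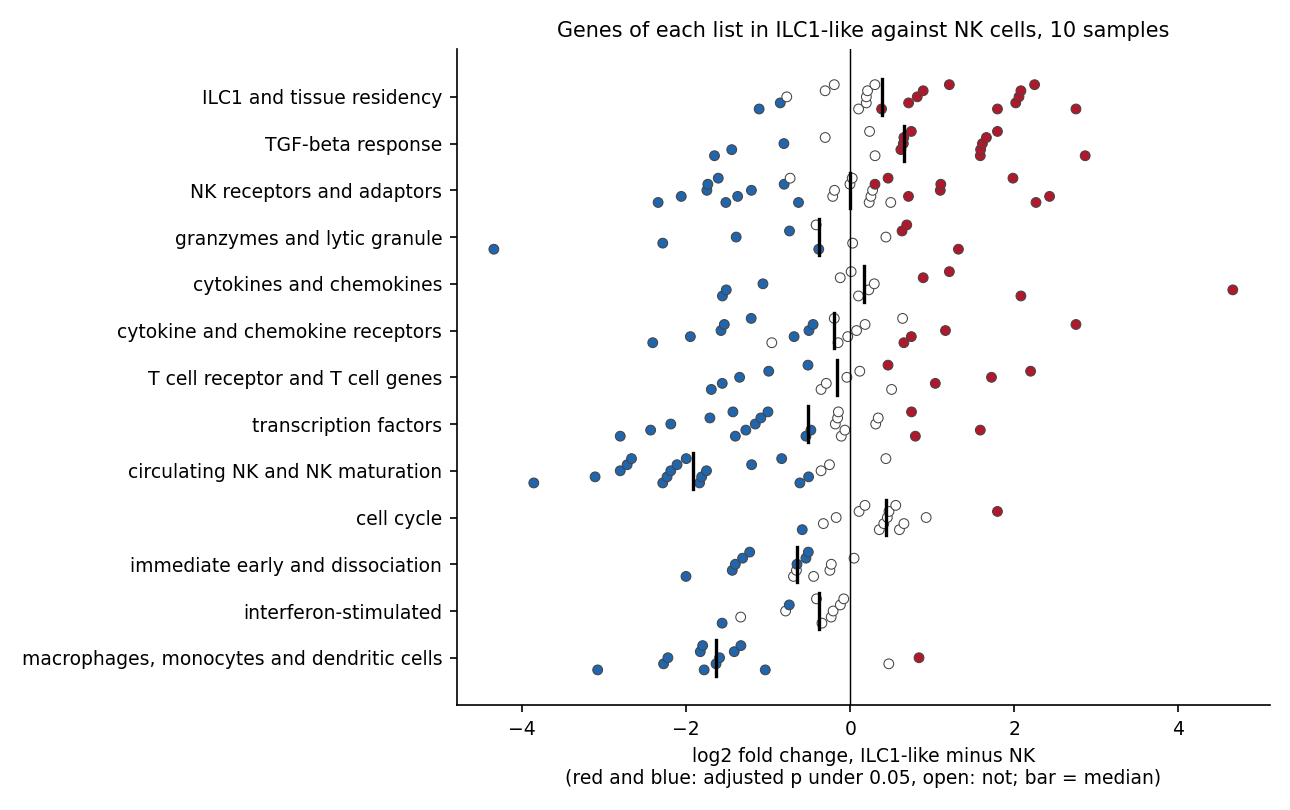
Log2 fold change of ILC1-like over NK cells for each tested gene of 13 gene lists, with red and blue points for genes past an adjusted p of 0.05, open points for the rest and a bar at the list's median. The circulating NK list lies lowest (17 of 20 lower, median -1.92) and the TGF-beta response list has its median at 0.65.

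Cytotoxic genes were split. Gzmb, which encodes granzyme B, ran from 1.57 (later HT2) through 13.4 to 31.6 (earlier Lactation) in members and from 1.68 through 4.67 to 9.50 in NK (1.32 ± 0.18, adjusted p = 5.7e-06, edgeR, higher in 9 of 10). Ctsw, a cathepsin gene of killer lymphocytes, had means of 13.1 and 7.72 (0.69 ± 0.10). The granzyme inhibitor gene Serpinb9 fell (-1.39 ± 0.16), and Nkg7, a granule membrane gene, fell slightly (-0.38 ± 0.09, adjusted p = 0.0044). In the granzyme and lytic granule list 3 of 11 tested genes were higher and 5 lower, with Prf1 and Serpinb9b among the lower.

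Among transcription factors 3 of 22 tested were higher and 12 lower (median -0.51). Eomes, the NK lineage factor, ran from 0.0631 (earlier Lactation) through 0.417 to 3.15 (later HT2) in members and from 1.82 through 2.71 to 3.60 in NK, lower in 10 of 10 samples (-2.43 ± 0.26, adjusted p = 9.9e-08, edgeR). It was detected in 3.39% and 11.6% of members and 26.0% and 49.7% of NK. Tbx21 fell by less (-0.48 ± 0.14, adjusted p = 0.018, means 1.48 and 2.11). Irf8, a factor of NK maturation, fell without overlap, from 4.51 to 7.34 in NK to 0.907 to 3.51 in members (-1.71 ± 0.15). Runx3, a residency and cytotoxicity factor, rose in 10 of 10 samples (0.79 ± 0.10, means 5.39 and 3.0). So did Ahr, the aryl hydrocarbon receptor gene (1.59 ± 0.24, means 1.14 and 0.339). Tox was the remaining riser (0.75 ± 0.16, higher in 9 of 10).

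Of 12 tested cytokine and chemokine genes 4 were higher and 3 lower. Ifng, which encodes interferon gamma, ran from 0.133 (Balb/c) to 0.791 in members and 0.880 to 1.74 in NK, without overlap (-1.51 ± 0.19, adjusted p = 1.9e-06, edgeR). The chemokine genes Ccl3 (-1.56 ± 0.20) and Ccl4 (-1.06 ± 0.19) fell in 9 of 10 samples, whereas Ccl5 had means of 73.3 ± 36.4 and 73.5 ± 22.5 (-0.12 ± 0.15, adjusted p = 0.71). Ccl1 was higher (4.66 ± 0.45) but came from 6 cells in each pool, the leading one holding 42.7% and 63.6% of its UMIs. Xcl1, Ltb and Tnfsf10, described above or listed as residency genes, were the other higher genes. Of 19 tested cytokine and chemokine receptor genes 4 were higher and 8 lower. Il18rap, a subunit of the interleukin 18 receptor, fell without overlap (-2.41 ± 0.17, 0.231 to 1.31 against 2.51 to 4.45), its partner Il18r1 fell (-1.95 ± 0.20), and so did the inflammatory chemokine receptor gene Ccr2 (-1.57 ± 0.16, means 2.43 and 6.14). Il21r rose in 10 of 10 samples (1.16 ± 0.20).

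Genes of the TGF-beta response were higher on balance, with 10 of 16 tested higher, 3 lower and a median of 0.65. Pmepa1, a target and feedback inhibitor of the pathway, had means of 0.995 ± 0.399 and 0.307 ± 0.145 and was higher in 10 of 10 samples (1.59 ± 0.20, adjusted p = 9.3e-07, edgeR). Cish, a cytokine signalling inhibitor gene (1.66 ± 0.19), Ldlrad4, a feedback inhibitor (1.61 ± 0.30), and the receptor genes Tgfbr1 (0.75 ± 0.19) and Tgfbr2 (0.65 ± 0.15) rose too. Smad3, a signal transducer of the pathway, fell in 10 of 10 samples (-1.44 ± 0.21, means 0.262 and 0.668). Rgs1, Ahr and Nt5e also belong to this list.

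NK receptor genes went both ways, with 8 of 27 tested higher and 10 lower. Activating and adhesion receptors Cd226 (1.10 ± 0.12, higher in 10 of 10) and Cd96 (1.10 ± 0.20, 8 of 10) and the inhibitory receptor Lag3 (1.98 ± 0.33) rose. Genes of the Ly49 family, MHC class I receptors of NK cells, mostly fell: Klra4 in 10 of 10 samples (-2.34 ± 0.18, means 1.28 and 4.73), Klra8 (-1.73 ± 0.19) and Klra7 (-1.52 ± 0.20), whereas Klra5 rose (2.26 ± 0.31, means 0.562 and 0.104). Of 14 tested T cell genes outside the gate 4 were higher and 5 lower. Trgc4 was higher in 10 of 10 samples (2.20 ± 0.17, means 1.87 and 0.387) and so were Trgc1 (1.72 ± 0.29) and the T lineage factor gene Bcl11b (1.04 ± 0.25). The costimulator gene Cd28 (-1.69 ± 0.20) and the delta chain gene Trdc (-0.99 ± 0.21) fell. Pecam1, an adhesion gene of endothelium and leukocytes (1.84 ± 0.26), and Epcam (1.98 ± 0.35) rose.

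The number of genes past the threshold was 526 of 3664 in cells gated at full depth and then thinned to 1000 UMIs. The number was 583 of 6615 in the earlier pool alone and 436 of 6708 in the later pool alone. It was 258 in the 5 samples that kept 10 members without a UMI of a T cell receptor constant gene. Such a UMI was held by 79.9% and 88.9% of members, so that fit rests on a small part of them. The number was 802 when the Balb/c and HT2 samples were left out.

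The levels of these genes were graded with the number of residency UMIs, which the gate uses only as a limit. In the NK gate of the earlier pool, Eomes stood at 2.38 in cells with 0 residency UMIs, 0.68 with 1, 0.28 with 2, 0.15 with 3 and 0.12 with 4 or more, and in the later pool at 3.18, 2.22, 1.70, 0.65 and 0.31. Cd7 went the other way, with 2.76, 12.2, 15.8, 15.2 and 17.7 in the earlier pool and 3.40, 8.12, 11.4, 14.1 and 26.4 in the later pool. In the earlier pool the cells with 1 UMI, outside the gate, were already near the members in Cd7. Their Eomes (0.68) lay between that of cells with 0 (2.38) and that of cells with 2 (0.28). In the later pool the cells with 2 UMIs, inside the gate, were between the extremes in both genes. Prf1 also differed in its course between pools: 8.71, 2.08, 1.09, 1.07 and 0.99 in the earlier pool and 6.54, 3.44, 4.18, 0.86 and 0.73 in the later pool. Gzmb stood higher at each step in the earlier pool (6.22, 10.5, 18, 18.8 and 25.3) and stood apart only at 4 or more UMIs in the later pool (4.2, 4.40, 5.06, 4.73 and 15.4). These groups hold 57 to 1575 cells each, a residency UMI is more often seen in a deeper cell, and no test was made. They also pool samples in unequal shares. The HT2 samples gave 494 of the 1575 earlier and 301 of the 898 later cells with 0 residency UMIs. Balb/c gave 185 later cells with 3 or more, where later Gestation gave 52. Whether the grading holds within samples was not tested.

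**Figure D4:**
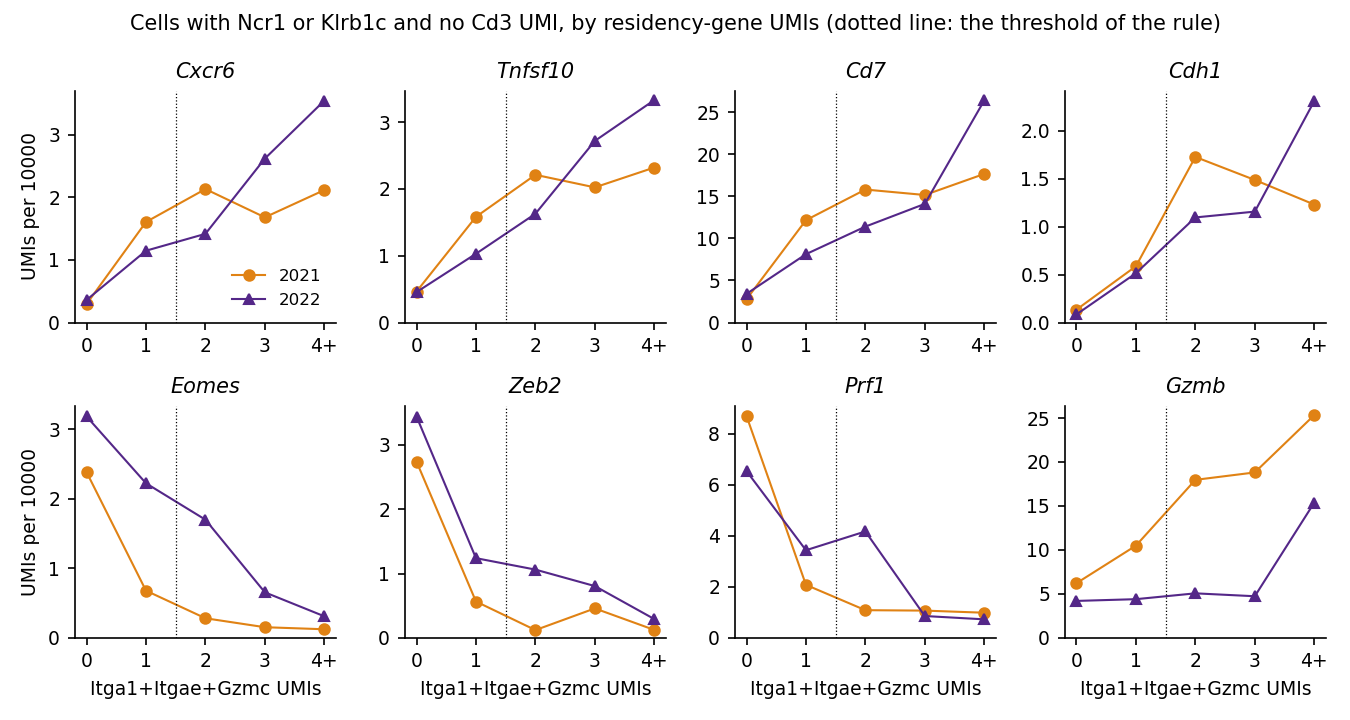
Level of 8 genes in UMIs per 10000 UMIs by the number of Itga1, Itgae and Gzmc UMIs in a cell of the NK gate, 1 line per pool, with a dotted line at the limit of the ILC1-like gate. Eomes goes from 2.38 to 0.12 in the earlier pool and from 3.18 to 0.31 in the later pool, and Cd7 from 2.76 to 17.7 and from 3.40 to 26.4.

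Members with both integrin genes were set beside those with Itga1 but no Itgae UMI, as a description. In the later pool, 288 members with both had 0.27 Eomes, 0.80 Prf1, 14.9 Gzmb and 26.4 Cd7, and 117 with Itga1 alone had 1.45, 2.60, 5.75 and 12.3. In the earlier pool, 252 and 124 members showed smaller differences: 0.12 and 0.23 for Eomes, 0.92 and 1.15 for Prf1, 23.9 and 17.7 for Gzmb and 18 and 13.1 for Cd7. These values pool samples in unequal shares: Balb/c gave 168 of the 288 later members with both genes, and of the 11 members of the later HT2 with Itga1 only 2 had Itgae too. Whether the contrast holds within samples was not tested. Ccl1 stood at 2.15 and 4.22 in the 140 and 126 members with Gzmc and at 0.03 in both pools in those without. All its member UMIs came from 6 cells in each pool, with 32 of 75 and 136 of 214 in 1 cell.

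The members were next compared with CD3-bearing cells that met the same residency condition and had no UMI of Cd8b1, Cd4, Cd79a or Ms4a1. These cells, unlike members, were not required to hold a UMI of Ncr1 or Klrb1c. The groups therefore differed by rule in the NK condition as well as in CD3. T cell receptor genes were lower in members, and Tyrobp, Id2 and several NK receptor genes were higher. Of 7978 genes 294 passed (3.69%), 139 higher (1.74%) and 155 lower (1.94%), with 1037 at an unadjusted p under 0.05. Both comparisons use the same ILC1-like sums. Absence of CD3 UMIs was the condition, so the fall of other T cell receptor genes is close to what the gate fixes: Trac had means of 0.165 and 2.49 without overlap (-4.71 ± 0.20), Trgv2 0.0158 and 1.59 without overlap (-6.55 ± 0.26), Trgc2 0.0556 and 1.59 (-5.31 ± 0.26), and Cd8a 0.0175 and 1.69 (-6.73 ± 0.26). Themis (-5.01 ± 0.58), Cd40lg (-4.26 ± 0.70), Cd5 (-3.69 ± 0.55) and Cd6 (-3.44 ± 0.36), all T cell signalling genes, fell with them, as did the phosphatase gene Ptpn5 (-3.42 ± 0.43) and Klra6 (-4.02 ± 0.32). Trbc2 remained at 2.56 in members against 7.80 (-1.62 ± 0.11). The gamma and delta genes Trgc4 (0.42 ± 0.12, adjusted p = 0.030) and Trdv4 (1.83 ± 0.32) were higher in members. Of 21 tested T cell genes 17 were lower and 2 higher.

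The genes higher in members included NK receptors. The NK condition was asked of members alone, and how far it sets these rises was not tested. Klrb1b, an inhibitory receptor gene, ran from 0.177 (Balb/c) through 1.76 to 4.06 (GF) in members and from 0.0379 through 0.247 to 0.819 in CD3-bearing cells (2.62 ± 0.17, adjusted p = 4.5e-14, edgeR, higher in 9 of 10). Klra4 (2.79 ± 0.29), Klra8 (2.28 ± 0.24) and the NK kinase gene Styk1 (2.12 ± 0.15) were also among the 10 largest rises. The others were Pecam1 (2.51 ± 0.15, means 1.91 and 0.335), Gm36723 (2.57 ± 0.14), Btbd3 (2.62 ± 0.68), Adamts14 (2.45 ± 0.56), Tiam2 (2.28 ± 0.39) and Nrgn (2.17 ± 0.32). Tyrobp rose from 12.3 ± 3.81 to 20.1 ± 2.47 in 10 of 10 samples (0.67 ± 0.09, adjusted p = 1.0e-06), and Itgax in 10 of 10 (1.11 ± 0.11). The Ly49 genes Klra1 (-2.90 ± 0.16), Klra7 (-2.25 ± 0.20) and Klra5 (-1.34 ± 0.15) were lower, so 12 of 29 tested NK receptor genes were higher and 6 lower.

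Id2, a factor that innate lymphoid cells need, was higher in 10 of 10 samples (0.70 ± 0.09, means 9.96 and 6.01, adjusted p = 4.8e-07, edgeR), and Tbx21 in 8 of 10 (0.60 ± 0.12). Ikzf2, which encodes Helios, ran from 0.262 through 0.442 to 1.25 in members and from 1.99 through 2.57 to 4.23 in CD3-bearing cells without overlap (-2.29 ± 0.17, adjusted p = 1.4e-12). The chemokine receptor gene Ccr2 (1.35 ± 0.14) was higher in 10 of 10 samples, and Tmem176b (1.41 ± 0.15) and Kit (1.70 ± 0.36), genes shared by several ILC, were higher too. Gzmb (-0.45 ± 0.08), Ccl5 (-0.50 ± 0.09), Cxcr6 (-0.39 ± 0.10) and Cd69 (-0.51 ± 0.11) were lower in members, each in at least 9 of 10 samples. Cd7, with means of 17.6 and 16.8 (-0.02 ± 0.07, adjusted p = 0.98), and Gzma, with 89.7 and 88.2 (-0.01 ± 0.13, adjusted p = 1.00), did not pass, nor did Runx3 (0.04 ± 0.08), Tnfsf10 (0.27 ± 0.10) and Nt5e (-0.32 ± 0.13). Of the residency list 7 of 23 tested genes were higher and 3 lower, and of the TGF-beta response list 2 of 17 were higher. The number past the threshold was 50 of 5180 genes tested without the sample as a block. It was 191 of 5915 (3.23%) when cells with a macrophage UMI were left out, against 294 of 7978 (3.69%) in the main fit. It was 97 of 6241 in the 5 samples that kept 10 members without T cell receptor UMIs.

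The only stages found in both pools were Gestation and Lactation, and the members' genes were compared between them with the pool as a block. The fit used 10 samples, with HT2 of both pools as 1 group despite its disputed name. It had only 2 residual degrees of freedom to estimate the spread between samples. Of 6525 genes 17 passed (0.261%), 15 higher (0.230%) and 2 lower (0.0307%) in Lactation, with 224 at an unadjusted p under 0.05. Of the 14 genes of the cell cycle list, all tested, 4 were higher and none lower, with a median log2 fold change of 1.99 against -0.00 over all genes. Mki67, which encodes the proliferation antigen Ki-67, stood at 0.245 in Gestation and 5.36 in Lactation of the earlier pool and at 2.40 and 2.61 in the later (2.20 ± 0.42, adjusted p = 0.00017, edgeR). Top2a, a topoisomerase gene, stood at 0.123 and 4.56, and at 2.84 and 2.96 (2.03 ± 0.42, adjusted p = 0.0012). Stmn1, a microtubule regulator, stood at 0.0817 and 6.18, and at 2.55 and 2.84 (2.38 ± 0.43). Each difference lay almost wholly in the earlier pool. Prc1 (3.17 ± 0.59), Cenpf (2.84 ± 0.49), Spc24 (2.79 ± 0.71), Cdca8 (2.51 ± 0.63), Kif11 (2.32 ± 0.59) and H3c3 (2.31 ± 0.59), genes of the spindle, kinetochore and chromatin, passed as well. In later Lactation the UMIs of Cenpf (10 of 10), Spc24 (4 of 4), Kif11 (9 of 9), H3c3 (16 of 16) and Prc1 (10 of 11) came from 1 cell for each gene, so their difference in the later pool rests on a single member per gene.

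Single cells carried several of these values. In the later Lactation sample, which has 20 members, all 22 UMIs of Mki67 came from 1 cell, while the 255 UMIs of earlier Lactation came from 44 of 170 members. Spp1, the osteopontin gene, had the largest rise (3.64 ± 0.61), with 27 of 31 UMIs of the later Lactation members in 1 cell. S100a9 (-6.08 ± 0.88) and S100a8 (-3.94 ± 0.93), genes of neutrophils, were lower in Lactation, with 31 of 34 and 65 of 69 S100a9 UMIs of the Gestation members of the 2 pools in 1 cell each. Among the other 5 genes past the threshold, Birc5 and Ube2c moved in opposite directions in the 2 pools, and 1913 of 3655 Igkc UMIs of the earlier Lactation members were in 1 cell. The count of 17 rested on single samples: it was 1 without earlier Gestation, 2 without earlier Lactation, 31 without later Gestation and 70 without later Lactation. DESeq2 called 0 genes, with 37 at an unadjusted p under 0.05.

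In NK of the same samples Mki67 also stood higher in Lactation, by 2.26 in the earlier pool and 3.63 in the later pool per 10000 UMIs, where members differed by 5.12 and 0.20. Stmn1 was higher by 3.24 and 4.54 in NK and 6.1 and 0.30 in members. Later Lactation held 31 NK cells, and 4 of them had a UMI of Mki67 or Top2a at full depth, so its NK values rest on few cells. The difference between the populations was not tested. Gzma was at 92.1 in Gestation and 258 in Lactation of the earlier pool but at 74.8 and 66.0 in the later, and Gzmb at 8.99 and 31.6 but at 15.6 and 10.9. Neither passed the threshold.

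With the populations kept as gated at full depth, cells were thinned to 1000 UMIs, and those below that depth were left out. Cells with a UMI of Mki67 or Top2a were then counted. They were 24.3% of members in earlier Lactation (exact interval 18 to 31.4, unthinned 30.0%), 14.4% in Nulliparous (unthinned 23.1%), 2.67% in Gestation (0.731 to 6.69, unthinned 4.85%) and 6.25% in HT2, which is 1 of 16 cells. The later pool had 8.0% in Gestation (unthinned 16%), 5.0% in Lactation, 14.3% in Involution and 8.33% in HT2, each from 6 or fewer cells. They were 2.93% in Balb/c (unthinned 7.69%) and 2.47% in GF, and none of the 7 Regression members had one, which allows up to 41.0%. Lactation and Nulliparous of the earlier pool lay above Gestation of the same pool beyond counting error, and the intervals of the 7 samples of the later pool overlapped. NK showed 18% in earlier Lactation and 5.66% in earlier Gestation, and CD3-bearing cells 14.4% and 2.25%. In Balb/c and GF the 3 populations had 2.47% to 5.69%.

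**Figure D5:**
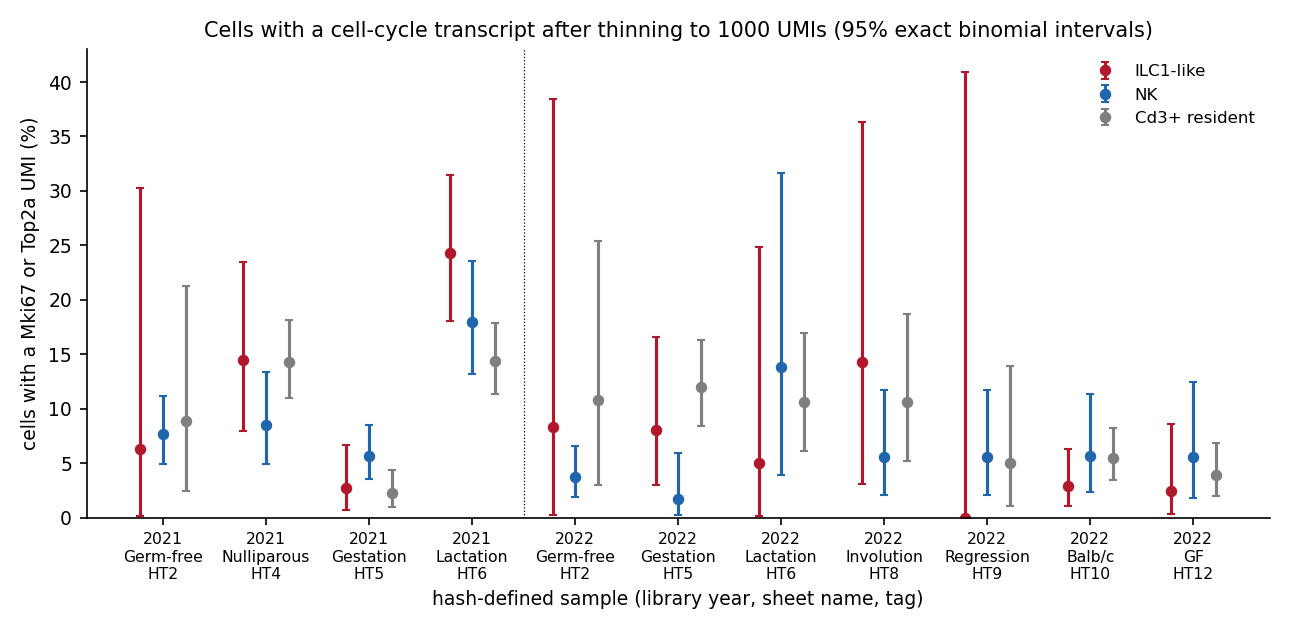
Percent of cells with a UMI of Mki67 or Top2a after thinning to 1000 UMIs, by hash-defined sample, for ILC1-like, NK and CD3-bearing cells, with 95% exact binomial intervals. The populations are those gated at full depth. Earlier Lactation is high in ILC1-like cells (24.3%), and earlier Gestation is low in ILC1-like (2.67%) and CD3-bearing cells (2.25%).

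The Balb/c members, the largest group of the later pool, differed from the rest in receptor genes. Klrb1c, a gate gene, stood at 1.36 per 10000 UMIs in Balb/c and at 5.11 to 9.97 in the other 6 samples of the later pool. Only 68 of 208 Balb/c members had a UMI of it, so most entered the gate through Ncr1, which stood at 8.18 against 4.19 to 6.28. NK of Balb/c also had low Klrb1c (2.23) and high Ncr1 (11.7). Klra4 and Klra8 stood at 0.0295 each in Balb/c members, the lowest of the 10 samples, and Klra5 at 2.12, the highest. Reads were counted on the mm10 genome, the sequence of another strain, and how far strain differences in the Klra and Klrb1 genes change these counts was not tested. Balb/c members also had the highest Cdh1, Cxcr6 and Cd226 (2.56, 3.77 and 6.32) and, among the 10 samples with at least 10 members, the lowest Prf1 and Ifng (0.383 and 0.133). NK and CD3-bearing cells of Balb/c likewise had the highest Cxcr6 and Cd226 of their populations, so these high levels were not particular to members. With 1 Balb/c sample no difference between strains can be tested.

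The 12 members of the later HT2 stood close to NK in several genes, chosen here after their values were seen. They had the highest Eomes (3.15), Prf1 (4.85) and Ccr2 (7.47) of all ILC1-like samples and the lowest Cdh1, Rgs1 and Gzmb (0.131, 4.59 and 1.57). Other NK genes did not follow: Klf2 stood at 1.31 there but at 3.59 in Involution, and Zeb2 at 0.524 but at 1.78 in later Lactation. Only 2 of them had an Itgae UMI. The 16 members of the earlier HT2 did not share this in all genes. They held 2 UMIs of Eomes, 4 of Ccr2 and 43 of Gzmb among 33087 UMIs. The 12 members of the later HT2 held 24, 57 and 12 among 76284 UMIs. Gzmc, a gate gene, stood at 15.4 in earlier HT2, above the 5.11 to 7.93 of the other samples of the earlier pool, and at 0.524 in later HT2. The GF members, from the tag whose name is not in dispute, had 3.82% of cells and 72.8% of members with Itgae, and lay within the range of the other samples in Cxcr6, Eomes and Prf1.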

How the data were processed

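Raw UMI counts of genes and raw tag counts, each by barcode, were deposited for 3' v3.1 10x libraries per the labels' protocols. The header of the gene matrix of the earlier pool names Cell Ranger 4, and the submitters' processing notes name Cell Ranger 6.1.0 and mm10. The libraries were joined on 55253 gene symbols, and 234 entries that shared a symbol were left out. Tags with at least 100 counts were called with HTODemux (Seurat 5.3.0, R 4.3.3, quantile 0.99), cells with 1 tag were kept, and Scrublet calls (scanpy 1.11.5, Python 3.11.15, expected rate 0.08; 7.83% and 6.87% of cells) were removed. UMI counts were summed per sample and population of at least 10 cells and tested with edgeR 4.0.16 (TMM, filterByExpr, quasi-likelihood test, Benjamini-Hochberg adjustment over all genes tested, threshold 0.05), with the sample as a block because both populations came from the same sample, or the pool between stages. The standard error (SE) was taken as the absolute log2 fold change divided by the root of the test's F value. The 12 gate genes counted toward library sizes but were not tested.

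Named genes are the 10 largest rises and falls past the threshold that moved the same way in at least 80% of samples (both pools between stages) with at least 20 UMIs, plus examples from the lists. The members and the gene lists were chosen with earlier results of these data known. On simulated counts with known changes the fit called 80% of 2-fold and 100% of 4-fold changes against NK (7333 genes), 90% and 99% against CD3-bearing cells (7439 genes), and 5% and 44% between stages (6106 genes). The simulated samples shared 1 mean profile and 1 spread for all genes, without differences between samples or pools. These rates therefore need not hold in the real data. Intervals are exact binomial ones at the 95% level and cover counting error only. Alternatives were DESeq2 1.42.0, other size factors, no filter, doublet calls kept, thinned cells, other gate limits, no block, single pools and samples left out. Results of some genes are not reported here.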

Additional observations from a re-analysis of the deposited data

Results flagged for a closer look

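Counts of tags that the sheets do not name were seen in ILC1-like cells, outside the data used for the comparisons, and above the limit that a count of 0 allows. In the earlier pool the 636 members held 23 counts of HT1, 7 of HT7 and 14 of HT9, with at most 3, 1 and 2 counts in a member. In the later pool the 607 members held 11 counts of HT1, at most 3 in a member. Over all cells these tags had 1303, 102 and 301 counts in the earlier pool and 968 in the later pool.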

How the results depend on the processing

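Between ILC1-like and NK cells 997 genes passed the threshold. The count was 526 in thinned cells, 583 in the earlier pool alone, 436 in the later pool alone and 258 in members without T cell receptor UMIs, where fewer genes or samples were tested, and 804 to 1030 with each sample left out in turn. Against CD3-bearing cells 294 of 7978 genes passed, with 448 of 21282 without the filter on low counts (33% of them higher, against 47%). The count was 146 of 3656 in thinned cells (3.99%, against 3.69%) and 50 of 5180 without the block for the sample. It was 117 of 5876 in the earlier pool alone, 147 of 7381 in the later pool alone and 97 of 6241 in members without T cell receptor UMIs. Without cells holding a macrophage UMI it was 191 of 5915 (3.23%). With each sample left out it was 223 to 308. Between Lactation and Gestation 17 passed, with 0 by DESeq2, 9 without the filter, 5 in thinned cells and 1 to 70 with each sample left out. Where the number of genes or samples did not change, the cause was not tested. The mean log2 ratio of the shares was -0.19 to 1.27 with each sample left out and the pool ignored. It changed sign without earlier Lactation (-0.19), where the ratio within the later pool was 0.181. Without that sample 4 genes changed sign as well, and with each sample left out in turn Mki67 lay at -0.023 to 4.79, Birc5 at -0.43 to 8.97, Ube2c at -0.12 to 9.45 and Igkc at -0.24 to 2.19. Trgc4 fell in members without T cell receptor UMIs, which excludes it by construction (-6.86 against NK, -9.55 against CD3-bearing cells). The 90 genes followed against NK kept their direction and their side of the threshold in 1087 of 1159 values under other settings, those followed against CD3-bearing cells in 609 of 663, and those followed between stages in 73 of 113. Later Lactation has 20 members, which limits the precision of its values.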
